A study of Homo sapiens with 8 samples.

Results

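Small nucleolar RNAs and small Cajal body RNAs were followed in LNCaP and DU145 cells, 2 established human prostate cancer lines, as all probe sets whose platform annotation gave a single gene symbol beginning with SNORA, SNORD or SCARNA. This rule found 198 probe sets among the 33297 of the array, or among the 19460 that carry a single symbol: 115 SNORD, 64 SNORA and 19 SCARNA, for 192 symbols. A further 76 probe sets listed several symbols, at least 1 of them of these classes, and were left out. Each line was transfected with a negative control miRNA (nc), with miR-29b, with a control siRNA (siControl) or with an siRNA against TET2 (siTET2), all in medium with 10% FBS, and RNA was taken 72 hours later. There were 8 arrays, 1 per line and construct, so no group had a replicate. The control siRNA and the negative control miRNA are both controls, and the difference between them within a line serves as the background for the 4 differences between a treatment and its control. Nothing in the labels gives a culture date, a passage or an array batch.

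The C/D box RNAs (SNORD) guide ribose methylation of ribosomal RNA and other RNAs, and the H/ACA box RNAs (SNORA) guide pseudouridylation. The small Cajal body RNAs (SCARNA) do the same for spliceosomal RNAs in another nuclear body. In human cells nearly all of them are trimmed out of the introns of host genes, many of which encode ribosomal proteins or translation factors, or are noncoding RNAs named small nucleolar RNA host genes. Their amount therefore depends on transcription of the host, on splicing, and on the proteins that protect the excised RNA, and mature copies are much more stable than most spliced noncoding hosts. Members are short: the RefSeq lengths had a median of 81 bases for SNORD (60 to 205), 134 for SNORA (123 to 236) and 270 for SCARNA (125 to 421). A probe set inside an intron reads any RNA that holds its sequence, the unspliced host included.

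On RefSeq's gene spans (GRCh38.p14, strand of the members not given in the table), 195 of the 198 members lay inside a longer gene, 116 in 81 protein-coding hosts and 79 in 25 noncoding hosts. The start regions of the noncoding hosts that the results below turn on are shown from 50 bases before to 50 bases after the RefSeq gene start. Capitals mark the longest run of C and T that touches the stretch from 10 bases before to 15 after the start, since many host genes begin transcription at such a run, called a terminal oligopyrimidine motif. Of the marked runs only that of SNHG5 spans the RefSeq start. Those of SNHG14 and SNHG29 end before it, and those of GAS5 and SNHG1 begin after it. The capitals therefore do not show where transcription begins. GAS5 holds 7 members, SNHG14 39, SNHG1 and SNHG5 2 each and SNHG29 1.
GAS5, chr1:173868996-173869095, minus strand: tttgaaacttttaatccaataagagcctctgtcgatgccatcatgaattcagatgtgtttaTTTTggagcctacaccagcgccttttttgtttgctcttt
SNHG1, chr11:62855836-62855935, minus strand: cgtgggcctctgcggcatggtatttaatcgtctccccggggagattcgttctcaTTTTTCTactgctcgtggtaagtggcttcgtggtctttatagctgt
SNHG5, chr6:85678684-85678783, minus strand: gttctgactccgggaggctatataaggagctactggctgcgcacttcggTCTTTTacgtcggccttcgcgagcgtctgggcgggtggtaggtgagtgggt
SNHG14, chr15:24823558-24823657, plus strand: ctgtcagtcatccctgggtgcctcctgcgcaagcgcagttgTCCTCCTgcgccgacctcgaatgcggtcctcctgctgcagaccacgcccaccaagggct
SNHG29, chr17:16438937-16439036, plus strand: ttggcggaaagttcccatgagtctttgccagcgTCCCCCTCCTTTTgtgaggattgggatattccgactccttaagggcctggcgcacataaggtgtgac
A run of at least 8 C or T that touched this stretch was present in 31 of 88 host start regions (35.2%) and in 16.8% of all 35116 start regions in RefSeq's table. These shares describe letters on the gene's strand only. The miRNA of the treatment is printed with its seed, bases 2 to 8, in capitals, from RefSeq's hairpins; the labels do not name the arm, and the 3p arm is shown because it is the arm usually called miR-29b.
hsa-miR-29b-3p: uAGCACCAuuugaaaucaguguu

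TET2, the gene the siRNA was made against, was lower with siTET2 than with siControl in both of its probe sets, with log2 differences of -0.85 and -1.12 in LNCaP and -0.91 and -1.25 in DU145. Of the LNCaP markers, 6 or 7 of the 7 measured lay above the array's median in LNCaP arrays and 2 in DU145 arrays. Of the DU145 markers, 7 of the 8 measured lay above the median in DU145 arrays and 0 in LNCaP arrays, and 0 of 9 markers of immune cells lay above it in any array. Of 8 fibroblast markers, 1 lay above it in each LNCaP array and 0 or 1 in the DU145 arrays. The deposited values have median levels of 7.62 to 7.70 in LNCaP and 7.35 to 7.40 in DU145 over probe sets with a single symbol, so levels are given below as the percentile of a probe set among those 19460 in its own array. Differences between probe sets in brightness also reflect their probes, so a percentile places a probe set on its array and is not an amount of RNA.

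The members spanned nearly the whole range of each array, and the repeat families of the C/D class had medians at different levels. The median C/D box member lay at percentiles from 43.8 to 53.8 in the 4 LNCaP arrays and from 37.0 to 40.0 in the 4 DU145 arrays. The H/ACA members had medians of 52.0 to 53.5 in LNCaP and 44.4 to 46.1 in DU145, and the Cajal body RNAs 43.1 to 50.3 and 43.6 to 46.7. For the H/ACA and C/D members the 4 DU145 medians were all below the 4 LNCaP medians, whereas those of the Cajal body RNAs overlapped.

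The array carried 20 probe sets for SNORD115 and 20 for SNORD116, which are tandem repeats of near-identical copies in an imprinted locus. SNORD115 is known for its restriction to brain and SNORD116 for its loss in Prader-Willi syndrome. For 39 of these 40 probe sets the smallest enclosing gene was SNHG14, and for SNORD116-6 it was a gene annotated within that span, LOC128966705. SNORD115 lay at the bottom of every array, with a family median between percentiles 0.103 and 0.146 in LNCaP and between 0.188 and 0.275 in DU145, and no member above 7.02 in any array. SNORD116 had family medians of 56.6 to 65.0 in LNCaP and 38.9 to 46.6 in DU145. The family medians therefore lay in different parts of the array although SNHG14 encloses both. Single SNORD116 probe sets reached down into the SNORD115 range, such as SNORD116-10 at percentiles from 2.07 to 3.46 over the 8 arrays. SNORD113 and SNORD114, C/D box repeats of another imprinted locus with the host MEG8, were also low: the 2 SNORD113 probe sets had medians of 0.961 to 2.10 and the 4 SNORD114 probe sets of 0.74 to 4.99 over the 8 arrays. The 69 C/D box probe sets outside these 4 families had medians of 59.9 to 62.7 in LNCaP and 53.4 to 55.8 in DU145. Copies of a family share sequence, so a probe set may read several of them and they are not independent measurements.

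**Figure D1:**
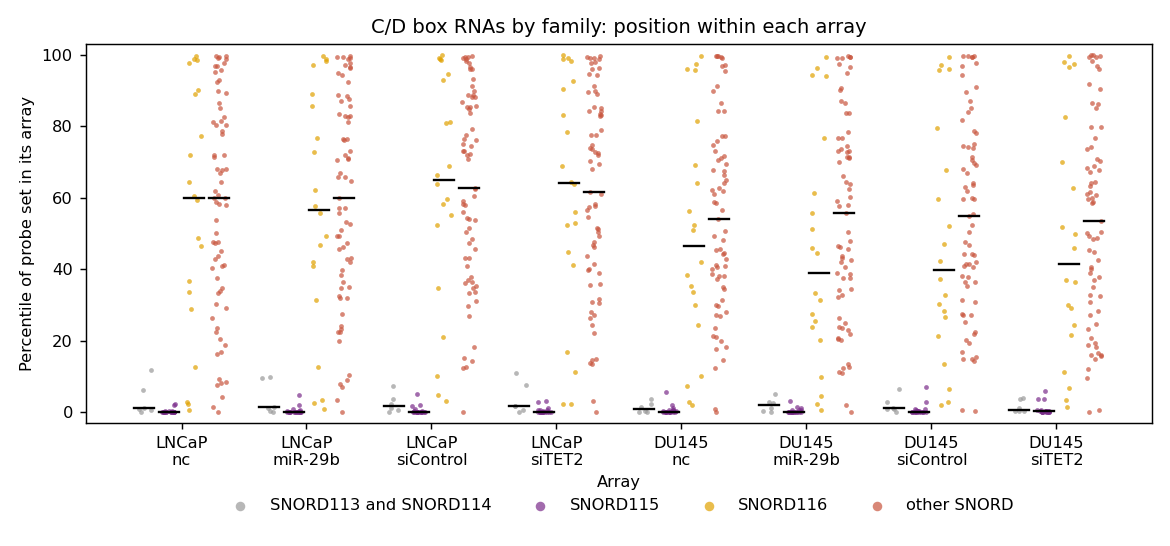
Percentile of each C/D box probe set among the probe sets with a single symbol of its array (vertical axis, 0 to 100), for the 8 arrays (horizontal axis), by family; each point is a probe set and each bar the family median. SNORD115 lies at the bottom in every array, and the SNORD116 medians are 56.6 to 65.0 in LNCaP and 38.9 to 46.6 in DU145.

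The members with the highest mean percentiles of their class over the 8 arrays were placed as follows. A high place in each array partly follows from that choice. SNORD33, from an intron of the ribosomal protein gene RPL13A, lay between percentiles 99.5 and 99.7 over both lines, and SNORD41, from TNPO2, between 99.1 and 99.6. SNORD116-15 lay between 99.2 and 99.8, in a family whose members reached down to 0.612. Among the H/ACA members SNORA3A (RPL27A) lay between 98.8 and 99.5, SNORA71D between 99.2 and 99.4, and SNORA23 (IPO7) between 98.2 and 98.8. The Cajal body RNA with the highest mean percentile, SCARNA12 (PHB2), lay between 95.0 and 97.2. Others picked in that class ranged more widely. SCARNA7 lay between 69.2 and 87.7, the first probe set of SCARNA17 between 63.6 and 79.2, and the second of SCARNA9 between 56.75 and 78.4. SNORD13, which helps guide acetylation of small-subunit ribosomal RNA and is transcribed from its own promoter, lay between 99.2 and 99.9. It was 1 of 3 members with no enclosing gene, beside SNORA7B and SNORD32B, and the copy SNORD13P3 took nearly the same place, 98.9 to 99.8.

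More of these RNAs were 2-fold apart between the LNCaP controls than between any treatment and its control. With siControl 11 members exceeded their nc value by 2-fold or more (0.216% of all 19460 probe sets did), and 0 fell short of it by as much (0.0206%). Among the 98 members whose mean over the LNCaP arrays reached the median of such means over all probe sets, 3 did. At 1.5-fold the counts over all members were 39 higher (background 1.72%) and 0 lower (2.48%). The 11 members are 9 of the 115 C/D box RNAs, 1 of the 64 H/ACA RNAs and 1 of the 19 Cajal body RNAs. The median log2 difference was 0.29 over C/D box RNAs, 0.07 over H/ACA RNAs and 0.10 over Cajal body RNAs, and -0.07 over all probe sets. In all, 135 of 198 members (68.2%) had a higher value with siControl, compared with 40.1% of all probe sets. These are differences between 2 single arrays and have no test.

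SNORD20, a guide of ribose methylation from an intron of the nucleolin gene NCL, had LNCaP log2 values of 3.93 (nc), 4.30 (miR-29b), 5.43 (siControl) and 4.30 (siTET2). Its DU145 values were 3.08, 3.32, 3.08 and 3.06 in the same order. The LNCaP siControl array thus stood above the other 7, with a log2 difference of 1.51 from nc, at a level that stayed in the lowest part of the array (percentile 15.2). SNORD79, from an intron of the noncoding host GAS5, had LNCaP values of 8.77 (nc), 9.34 (miR-29b), 10.00 (siControl) and 9.42 (siTET2) and DU145 values of 8.61, 8.79, 8.75 and 8.15. SNORD77 of the same host had 5.66, 6.02, 6.77 and 6.46 in LNCaP and 4.38, 4.57, 4.71 and 4.45 in DU145. In both GAS5 members nc was the lowest LNCaP array, siControl the highest, and the treated arrays lay between them. Both were taken for being 2-fold higher with siControl than with nc, so this order partly follows from that choice.

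SNORD42A, from the ribosomal protein gene RPL23A, went from 8.20 (nc) through 8.61 (miR-29b) and 8.94 (siTET2) to 9.33 (siControl) in LNCaP, while its DU145 values spanned 8.25 to 8.32. SNORD50B, from SNHG5, had LNCaP values of 6.58 (nc), 7.26 (miR-29b), 7.73 (siControl) and 7.43 (siTET2). SNORD49A, from SNHG29, had 8.23, 8.74, 9.26 and 9.06 in the same order. SNORD59A, from ATP5F1B, which encodes a subunit of ATP synthase, had 5.10, 5.86, 6.32 and 6.20. SNORD77, SNORD42A and SNORD49A were chosen after their values were seen, for passing 2-fold. The same order of arrays, with nc at the bottom and siControl at the top, held in SNORD42A, SNORD50B, SNORD49A and SNORD59A. These members were taken for being 2-fold higher with siControl than with nc, so the order partly follows from that choice.

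SNORA69, the H/ACA member of the 11 and located in the ribosomal protein gene RPL39, had LNCaP values of 5.50 (nc), 5.85 (miR-29b), 6.64 (siControl) and 6.09 (siTET2). The Cajal body member, the first of 2 probe sets of SCARNA9L (in EIF1AX), had 6.84, 7.15, 7.87 and 7.61, a difference of 1.04 between the controls. The second SCARNA9L probe set differed by 0.19 between the same arrays. SNORD116-22 had 6.96, 7.14, 8.18 and 7.33, and SNORD116-29 had 6.78, 7.21, 7.98 and 7.86. None of the 11 was at least 2-fold apart between the controls in DU145, where their differences ran from -0.50 (SNORD116-29) to 0.33 (SNORD77).

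**Figure D2:**
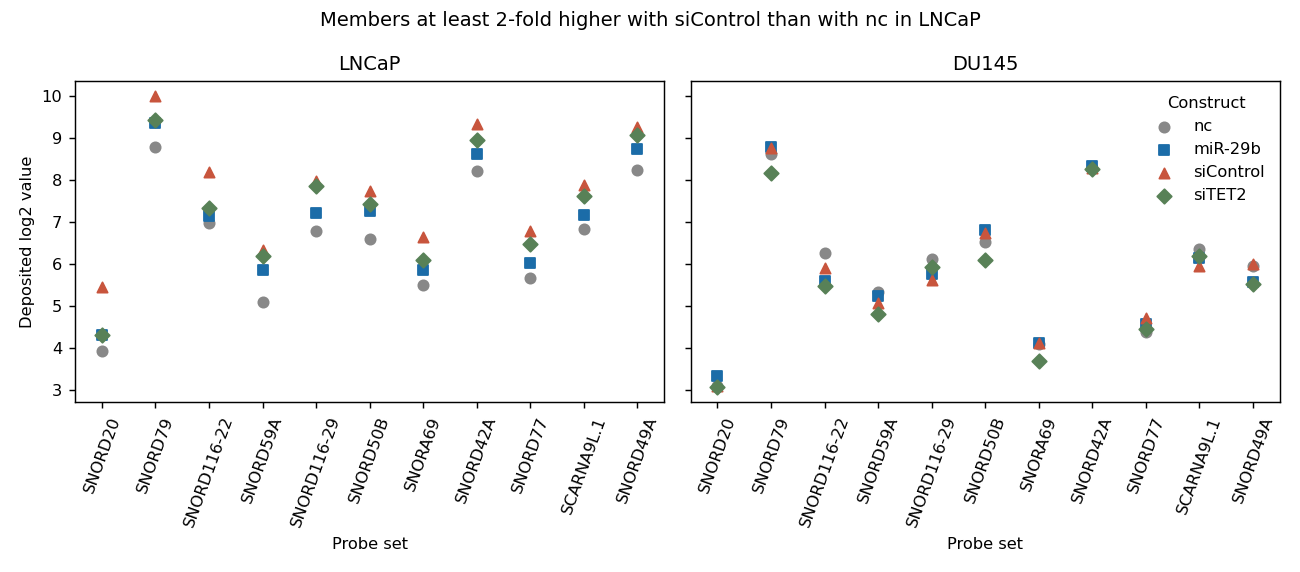
Deposited log2 values (vertical axis) of the 11 members that were at least 2-fold higher with siControl than with nc in LNCaP (horizontal axis), in LNCaP (left) and DU145 (right); each symbol is 1 array. In LNCaP the nc array is the lowest and the siControl array the highest for each of the 11, which partly follows from how they were chosen.

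The SNORD116 family and the GAS5 members moved as groups between the LNCaP controls. All 20 SNORD116 probe sets were higher with siControl than with nc in LNCaP, by 0.09 to 1.23 with a median of 0.41 (40.1% of all probe sets were higher). In DU145 the direction was the opposite in 18 of these 20, with a family median of -0.16 (9691 of all 19460 probe sets were lower with siControl). The DU145 controls as a whole had 0 members 2-fold higher with siControl (background 0.036%) and 0 lower (0.00514%), and at 1.5-fold 0 higher (0.514%) and 3 lower (0.221%). The difference between the lines was not tested. The 7 GAS5 members were all higher in LNCaP, by 0.05 (SNORD74) to 1.23 (SNORD79) with a median of 0.80. For all 7, nc was the lowest and siControl the highest of the LNCaP arrays. Over the C/D class, nc was the lowest LNCaP array for 52.2% of members and siControl the highest for 52.2%, where the shares over all probe sets were 22.2% and 19.7%.

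Members of other hosts differed by host. The 3 members in introns of NCL were higher with siControl in LNCaP by a median of 0.79, the 3 of RABGGTB by 0.66 and the 3 of RPL23A by 0.46. The 4 members of RPL13A had a median of -0.07 and the 3 of RPL3 of -0.04. In DU145 the medians of these host groups lay between -0.0021 (NCL) and 0.16 (GAS5).

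**Figure D3:**
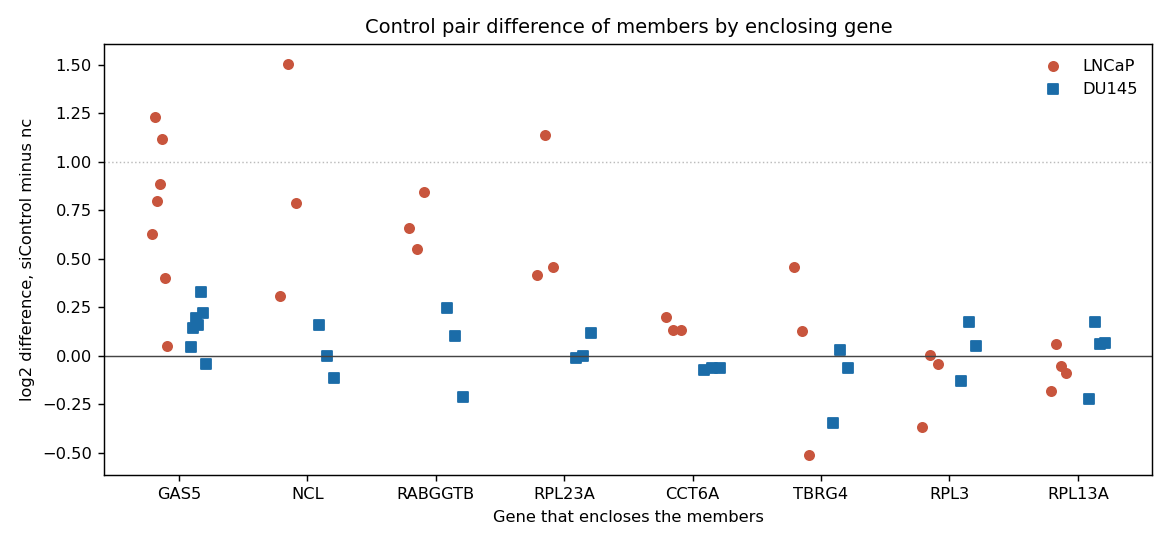
Log2 difference of siControl minus nc (vertical axis) for each member inside 8 genes that enclose at least 3 members outside the SNORD113 to SNORD116 families (horizontal axis), in LNCaP (circles) and DU145 (squares); each symbol is the difference of 2 arrays and the dotted line marks 2-fold. All 7 GAS5 members lie above 0 in LNCaP.

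In the LNCaP control pair the differences of the host transcripts spanned a narrower range than those of the small RNAs. A host with its own probe set was available for 96 members (70 hosts). Enclosing genes were taken on either strand, so some may lie antisense to their member and not be its host. In the LNCaP control pair the hosts' log2 differences ran from -0.37 to 0.55, with none at least 2-fold apart. Over all 198 members the differences ran from -0.55 to 1.51. Of the 96 members, 59 lay above their host. NCL differed by 0.12 where SNORD20 differed by 1.51, ATP5F1B by 0.09 where SNORD59A differed by 1.22, and RPL23A by 0.05 where SNORD42A differed by 1.14. NCL, ATP5F1B and RPL23A are bright, at 12.01, 13.35 and 13.17 with nc, where the highest single-symbol value was 13.87. Whether that level limits their differences was not tested. Other hosts differed by more than their member: HAUS6 by 0.55 where SCARNA8 differed by 0.25, and EIF5 by 0.53 where SNORA28 differed by 0.30. Across the 96 members the Pearson correlation of a member's difference with its host's was 0.05 in this pair and between 0.03 and 0.14 in the 6 differences. Members of the same host share a host value, and all points share the same arrays. GAS5, SNHG1 and SNHG14 had no probe set of a single symbol and their spliced transcripts were not analysed here.

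Other features also differed between the LNCaP siControl and nc arrays, and not all in the same direction. Probe sets not listed in the annotation were at least 2-fold higher with siControl in 701 of 12083 cases. Most of these, 599 of 4203 (14.3%), were numbered before the first annotated probe set, and the share among the other unlisted ones was 1.29%. The 222 probe sets of other small RNAs (spliceosomal, Y, vault and 5S RNAs, microRNA hairpins and relatives) had a median of -0.23, with 2 higher and 2 lower by 2-fold or more. That median is opposite in sign to the C/D box median of 0.29. Their part in the C/D box difference was not tested. With 1 array a group, a property of a dish or an array and an effect of the control construct cannot be told apart. When siControl was set against the mean of the miR-29b and siTET2 arrays in place of nc, a comparison chosen after seeing the data, 1 member was at least 2-fold higher. When that mean was set against nc, 0 were.

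Few probe sets of any kind were 2-fold apart with siTET2, and 1 member was. These counts therefore say little about these RNAs in particular. At 2-fold or more, LNCaP had 0 members higher with siTET2 (background 0.036% of all probe sets) and 1 lower (0.0822%), and DU145 had 0 higher (0.0976%) and 0 lower (0.149%). At 1.5-fold, LNCaP had 0 higher (0.545%) and 3 lower (1.52%), and DU145 had 1 higher (0.971%) and 3 lower (1.22%). The 1 member was SNORD20, with the LNCaP difference of -1.13 taken from its high siControl value. Against nc, the other control of the line, it was 0.37 higher with siTET2. The LNCaP medians were -0.08 over C/D box, 0.05 over H/ACA and -0.05 over Cajal body RNAs, and the DU145 medians were -0.01, -0.04 and 0.12. All 7 GAS5 members had lower values with siTET2 than with siControl in both lines (8016 of all 19460 probe sets did in LNCaP and 9431 in DU145). Their differences ran from -0.58 to -0.02 in LNCaP (median -0.30) and from -0.60 to -0.02 in DU145 (median -0.18). In LNCaP this difference and the one between the controls share the siControl array, in which the GAS5 members were highest.

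In DU145 the largest differences with siTET2 were 0.71 for SNORD115-31, which lay at percentile 3.70 at most, and -0.63 for SNORD50B. SNORD50B had DU145 values of 6.52 (nc), 6.81 (miR-29b), 6.72 (siControl) and 6.10 (siTET2). SNORD79 was lower with siTET2 than with siControl by -0.58 in LNCaP and -0.60 in DU145, the only member among the 5 lowest of both lines. Its DU145 siTET2 value of 8.15 lay below all 3 other arrays of the line.

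Few probe sets of any kind were 2-fold apart from nc with miR-29b, and no member was, which says little about these RNAs in particular. LNCaP had 0 members higher (background 0.103%) and 0 lower (0.00514%) at that size, and DU145 also had 0 higher (0.00514%) and 0 lower (0.0103%). At 1.5-fold, LNCaP had 3 higher (0.714%) and 0 lower (0.375%), and DU145 had 0 higher (0.576%) and 4 lower (0.221%). The median difference was 0.07 over C/D box, -0.01 over H/ACA and 0.01 over Cajal body RNAs in LNCaP, and -0.08, -0.06 and -0.06 in DU145. The extremes in LNCaP were SNORD59A (0.76), SNORD50B (0.68) and the second SCARNA9L probe set (-0.46). The differences of SNORD59A and SNORD50B share the low nc array with the control pair. In DU145 19 of the 20 SNORD116 probe sets were lower with miR-29b than with nc, with a median of -0.36 (9894 of all 19460 probe sets were lower). This difference shares the nc array with the DU145 control pair, in which 18 of the 20 were lower with siControl (median -0.16). Copies of the family may read each other and are not independent. In DU145 miR-29b was the lowest array for 16 of the 20, and the highest was nc for 9 and siTET2 for 9. With siTET2, 15 of the 20 were higher than with siControl in DU145, with a median of 0.19 (51.4% of all probe sets were higher). SNORD116-22 had DU145 values of 6.24 (nc), 5.59 (miR-29b), 5.89 (siControl) and 5.48 (siTET2), so that unlike most of its family it was lowest with siTET2. In LNCaP 7 of the 20 SNORD116 probe sets were higher with miR-29b than with nc and the median was -0.03 (45.5% of all probe sets were higher).

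**Figure D4:**
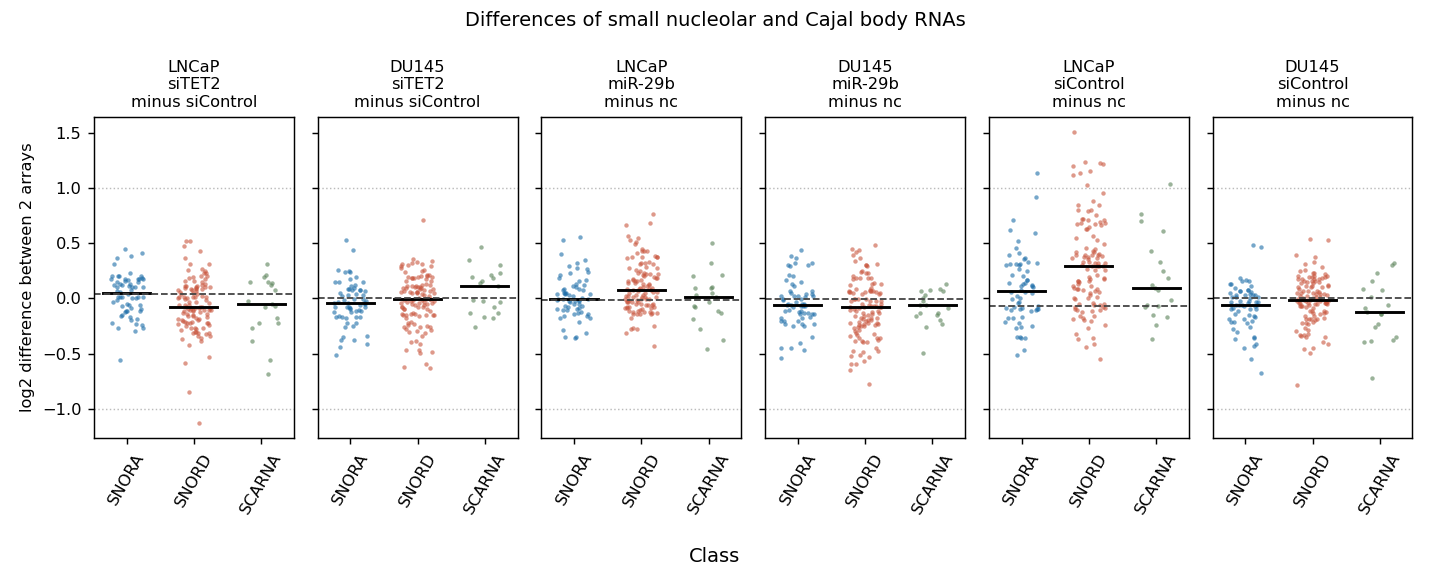
Log2 difference between 2 arrays (vertical axis) of each SNORA, SNORD and SCARNA probe set (horizontal axis) in the 6 differences within a line; bars are class medians, the dashed line is the median of all probe sets with a single symbol and dotted lines mark 2-fold. The SNORD median is 0.29 in the LNCaP control pair and between -0.08 and 0.07 in the other 5.

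An effect common to both lines was tested with limma on all 8 arrays in an additive model of construct and line, which leaves 3 degrees of freedom for error. Of the 198 members, 88 passed the floor on the mean level over the 8 arrays. After Benjamini-Hochberg adjustment over 9730 probe sets limma called 0 members for siTET2 against siControl, 0 for miR-29b against nc and 0 for siControl against nc. The shares called over all probe sets were 0.37% (0.0308% higher and 0.339% lower), 0% and 0%. At an unadjusted limma p under 0.05 there were 5, 9 and 18 members, that is 5.68%, 10.2% and 20.5% of those tested, where the shares of all probe sets were 13.7%, 3.67% and 13%. Of the 18 for the control pair, 15 were C/D box RNAs, 14 of them higher with siControl. On simulated data with 8 arrays the same fit recovered 100% of 2-fold changes and 73% to 78% of changes of 0.5 on the log2 scale. It also called 8 to 11 unchanged probe sets a run. The simulated arrays had independent normal errors, no line effect and changes that were identical in both lines. These shares therefore do not give the power of the fit on the measured arrays, where a construct may act differently in the lines.

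The members with the smallest p in these fits were not called. For siControl against nc they include SNORD45C of RABGGTB, with a common difference of 0.45 ± 0.12 (SE, n = 2 arrays a construct; limma adjusted p = 0.362). SNORD28, a C/D box RNA from SNHG1, had 0.50 ± 0.13 (SE; limma adjusted p = 0.362). For siTET2 against siControl SNORA14A, in POR, had 0.40 ± 0.12 (SE; limma adjusted p = 0.203), with 0.37 in LNCaP and 0.44 in DU145. For miR-29b against nc SNORD52, in SNHG32, had 0.41 ± 0.10 (SE; limma adjusted p = 0.999), with 0.38 in LNCaP and 0.44 in DU145.

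The lines themselves differed in many members, mostly with lower values in DU145. After joint quantile normalization of the 8 arrays limma called 70 of the 88 tested members between DU145 and LNCaP (background 78.4% of all probe sets), 59 lower in DU145 (background 39.6%) and 11 higher (38.9%). The share called was thus near the background, and the split between the directions was not. The median difference was -0.42 over the tested members and -0.02 over all probe sets tested. By class, 35 of 50 tested C/D box RNAs, 20 of 30 H/ACA RNAs and 4 of 8 Cajal body RNAs were called lower. Counted over all 198 members by percentile, with no floor and no test, the 4 DU145 arrays lay below the 4 LNCaP arrays in 92 members (46.5%; 35.5% of all probe sets) and above them in 19 (9.60%; 27.6%). The arrays of a line carry 4 different constructs and are 1 line each, so the comparison is of these cultures.

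SNORD116-21 showed the largest difference. Here and in the line comparisons that follow, values of single arrays are the deposited ones, whereas differences are after joint quantile normalization. The printed values therefore do not give the stated differences exactly. It had log2 values of 10.29 (nc), 10.01 (miR-29b), 10.81 (siControl) and 10.49 (siTET2) for LNCaP cells and 7.84, 7.45, 7.52 and 7.47 in DU145, and was lower in DU145, with a difference of -2.58 ± 0.12 (SE, 4 arrays a line; limma adjusted p = 2.67e-07). By percentile, 16 of the 20 SNORD116 probe sets lay lower in all DU145 arrays than in all LNCaP arrays, 3 overlapped and 1 lay higher. The 1 was SNORD116-18, singled out after its values were seen. It had 3.54, 3.70, 4.50 and 4.13 in LNCaP and 5.41, 5.17, 5.22 and 5.27 in DU145, with percentiles of 0.61 to 4.84 against 20.2 to 24.4. Of the 20, 10 passed the floor, and limma called these 10 lower in DU145. The floor is on the mean over all 8 arrays, so copies near it can pass through their LNCaP values. SNORD116-25 and SNORD116-26 had median percentiles of 62.07 and 66.63 in LNCaP and 45.99 and 48.47 in DU145. SNORD116-18 did not pass. The shared direction of the 10 is therefore partly set by the floor.

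SNORA67, an H/ACA RNA in the translation initiation factor gene EIF4A1, had 9.83, 10.00, 10.13 and 10.26 in LNCaP and 8.07, 8.0, 7.71 and 7.86 in DU145, a difference of -1.91 ± 0.10 (SE; limma adjusted p = 5.53e-07). SNORA10, in the ribosomal protein gene RPS2, is read by 2 probe sets with identical values. It had 10.51, 10.16, 10.15 and 10.27 in LNCaP and 8.57, 8.88, 8.48 and 8.31 in DU145, a difference of -1.504 ± 0.12 (SE; limma adjusted p = 4.96e-06). RPS2 itself differed by -0.01 ± 0.06 (SE; limma adjusted p = 0.834). The values of the lines did not overlap in either small RNA, while those of the host RPS2 did. RPS2 read 13.09 to 13.38, near the top of the arrays, whose highest single-symbol values were 13.86 to 14.05. Whether a line difference could show at that level was not tested.

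Both SNHG1 members were lower in DU145. SNORD28 had 10.69, 11.01, 11.40 and 11.04 in LNCaP and 9.26, 9.71, 9.54 and 9.40 in DU145, a difference of -1.39 ± 0.08 (SE; limma adjusted p = 9.79e-07), and SNORD30 had -1.30 ± 0.06. The U14 RNAs of HSPA8, which take part in the cleavage that releases small-subunit ribosomal RNA, were lower too, SNORD14C by -1.28 ± 0.06 and SNORD14E by -1.18 ± 0.08. HSPA8, a constitutive chaperone, differed by -0.24 ± 0.06 (SE; limma adjusted p = 0.00511). Its deposited values of 13.60 to 14.04 also lay near the top of the arrays. Further members lower by over 1.2 on the log2 scale were SNORD43 of RPL3 (-1.36), SNORD36B of RPL7A (-1.33), SNORA74A of SNHG4 (-1.31) and SNORD45C of RABGGTB (-1.24). Of the 7 GAS5 members, 6 passed the floor and limma called these 6 lower, SNORD44 by -1.04 ± 0.10.

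The 11 members called higher in DU145 differed by smaller amounts. SCARNA7, a Cajal body guide in KPNA4, had 8.84, 8.94, 9.17 and 9.24 in LNCaP and 9.94, 10.07, 9.55 and 9.69 in DU145, a difference of 0.98 ± 0.13 (SE; limma adjusted p = 0.000147). SNORD60 of SNHG19 differed by 0.92 ± 0.09 and SNORD53 of WDR43 by 0.79 ± 0.14. SNORD13 and its copy SNORD13P3 were higher by 0.60 ± 0.09 and 0.65 ± 0.09. SNORD57, in NOP56, which encodes a core protein of C/D box particles, was higher by 0.31 ± 0.07. SNORA20 of TCP1 (0.56), SNORA5A of TBRG4 (0.42), SCARNA10 of NCAPD2 (0.39), SNORA38B of NOL11 (0.29) and SNORD83B of RPL3 (0.28) complete the 11. On the deposited values, without joint normalization, limma did not call SCARNA10 (0.13, adjusted p = 0.138) or SNORA5A (0.04, adjusted p = 0.779). Leaving out the LNCaP or the DU145 array of a construct gives the same line contrast, so the 8 fits without 1 array repeat each other in pairs. The calls of SNORA5A and SNORA38B were lost in the fits without an nc or a miR-29b array. There limma adjusted p was 0.066 to 0.0701 for SNORA5A and 0.0962 to 0.135 for SNORA38B. Both calls were also lost over all probe sets of the table, with limma adjusted p of 0.0575 for SNORA5A and 0.0853 for SNORA38B. SNORA38B and SNORD83B had values of the opposite sign, -0.02 and -0.04, on the deposited values.

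**Figure D5:**
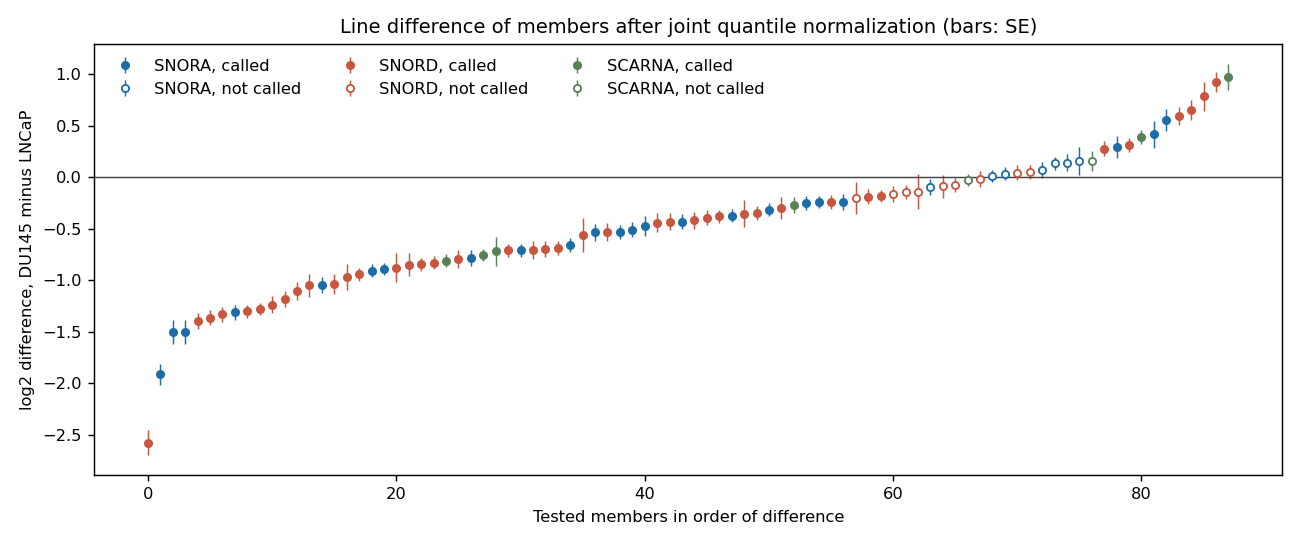
Log2 difference of DU145 minus LNCaP after joint quantile normalization (vertical axis) for the 88 tested members in order of difference (horizontal axis, rank); points are limma estimates over 8 arrays, bars are 1 SE, filled points passed an adjusted p of 0.05. The lowest point is SNORD116-21 at -2.58 and the highest is SCARNA7 at 0.98, with 59 filled points below 0 and 11 above.

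The proteins that make up and assemble the particles were measured for 20 of 23 listed genes. They include fibrillarin (FBL), the methylase of C/D box particles, and dyskerin (DKC1), the pseudouridine synthase of H/ACA particles. Limma called 0 of the 20 for siTET2 against siControl, miR-29b against nc or siControl against nc, and 4, 1 and 3 had an unadjusted limma p under 0.05 (13.7%, 3.67% and 13% of all probe sets did). NHP2, a core protein of H/ACA particles, had the largest common difference with siTET2, -0.82 ± 0.15 (SE; limma adjusted p = 0.0698). Between the lines limma called 5 of the 20 higher and 7 lower in DU145, where it called 38.9% and 39.6% of all probe sets. NAF1, an assembly factor of H/ACA particles, was lower by -1.18 ± 0.08 (SE; limma adjusted p = 1.67e-06), NHP2 by -0.85 ± 0.09 and NOP58, a core protein of C/D box particles, by -0.50 ± 0.07. RUVBL2, an ATPase of the assembly machinery, was higher by 0.62 ± 0.07, and FBL differed by -0.01 ± 0.06 (SE; limma adjusted p = 0.869). Of 20 listed genes that host small nucleolar RNAs, most of them noncoding, 4 had a probe set of their own (SNHG17, ZFAS1, TAF1D and EPB41L4A-AS1). Limma called 0 of these 4 for any construct, and TAF1D alone had an unadjusted p under 0.05, for siControl against nc (0.41 ± 0.09, SE; limma adjusted p = 0.362). In DU145 ZFAS1 was higher by 0.51 ± 0.07 and EPB41L4A-AS1 lower by -1.03 ± 0.09.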

How the data were processed

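The deposited values are on a log2 scale, 1 per probe set (33297) and array (8), and came from RMA in Affymetrix Expression Console, as the submitters' processing notes list. Biotin labelling of ISOGEN-extracted total RNA used an Affymetrix whole transcript kit, per the labels' protocols. The table names no genome build, log base or set of arrays normalized together, and the number of arrays limits the precision. Gene names are those of the platform annotation; symbols changed through RefSeq numbered 0. Hosts are the smallest enclosing RefSeq gene that is no small RNA, on either strand; the design asked for the same strand, which the table does not give for the members. Within a line, 1 array was subtracted from another, with no floor and no test, and members were counted at 2-fold. An effect common to both lines was tested with limma 3.58.1 (R 4.3.3) on the 9730 probe sets whose mean over 8 arrays reached the median of such means (log2 7.522), two-sided, with line and construct as terms, Benjamini-Hochberg adjustment and a limit of 0.05. The design assumes that a construct acts alike in both lines, and any departure counts as error. Nothing says that arrays came from separate cultures, so p-values measure only the spread between these arrays. For the line contrast the 8 arrays were quantile-normalized together. The fit was run on simulated data in which each change was the same in both lines. Alternatives changed the floor, normalization, prior variance, control array, fold threshold and probe set per symbol, and left out each array in turn. Members named were those called by limma, the 5 highest and 5 lowest of each within-line difference, the 5 with the highest mean percentile of each class, the repeat families and symbols with more than 1 probe set; others are said to be chosen after their values were seen. The members and lists were chosen with earlier results of these data known. Tables were handled with Python 3.11.15 and pandas 2.3.3. Some results are not reported here.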

Additional observations from a re-analysis of the deposited data

Results flagged for a closer look

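In each line, 63 items (the named members and the class medians) were looked at over its 4 arrays, and 1 array stood far from the other 3 in 8 of these 126 sets of 4. Chance flags about 1 in 20 sets of 4 for items that are not chosen by their values. Many of these members were named for large differences between the same arrays, so the count of 8 cannot be set against that rate. The 4 arrays also carry different constructs.

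In LNCaP, SCARNA14 stood high with siControl at a log2 value of 5.582, where the others had 4.893 to 4.970. SNORA5B of TBRG4 stood low with siControl at 5.751, where the others had 6.199 to 6.263. SNORA33 of RPS12 stood low with nc at 5.799, where the others had 6.183 to 6.204, and SNORD52 of SNHG32 stood low with nc at 8.764, where the others had 9.116 to 9.154. In DU145, SNORA69 stood low with siTET2 at 3.695, where the others had 4.080 to 4.121. SNORA70E of RAB30 stood high with miR-29b at 5.683, where the others had 5.212 to 5.254, and SNORD20 at 3.324, where the others had 3.061 to 3.085. The median over the H/ACA class in DU145 stood high with siTET2 at 7.081, where the others had 6.986 to 6.998. Member by member the class did not follow its median: 39 of the 64 were lower with siTET2 than with siControl in DU145 (median difference -0.04), and siTET2 was the lowest DU145 array for 26 of 64 (40.6%, against 30.4% of all probe sets).

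SNORD115-44 differed in direction between the lines under miR-29b: it was 0.66 higher than with nc in LNCaP (log2) and had a difference of -0.78 in DU145. This contrast between the lines was not tested, and the probe set lay at a percentile of 7.02 at most.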

How the results depend on the processing

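With 1 array a group, a 2-fold count rests on 2 arrays. For the LNCaP control pair the 11 members at least 2-fold higher became 3 with a level floor, 39 at 1.5-fold, 1 with siControl against the mean of miR-29b and siTET2, and 0 with that mean against nc; the last 2 comparisons were chosen after seeing the data. At 1.5-fold the counts were 3 higher for LNCaP miR-29b, 1 higher and 3 lower for DU145 siTET2, 4 lower for DU145 miR-29b, 3 lower for DU145 siControl and 3 lower for LNCaP siTET2. Against the line's other control they were 2 higher and 0 lower for LNCaP siTET2, 2 lower for LNCaP miR-29b and 1 higher for DU145 siTET2; LNCaP siTET2 also had 0 lower with the floor, and 0 when its controls were averaged. The member median moved to 0.1748 (LNCaP siTET2, other control), -0.0208 (DU145 miR-29b, other control) and 0.0481 (DU145 siTET2, with the floor). The median of DU145 siControl minus nc was 0.0028 after centring, 0.0091 for siControl against the treated mean and -0.0602 for the treated mean against nc. Limma called 0 members for the 3 construct contrasts under every alternative run. Between the lines, 70 calls became 142 with no floor, 35 with the stricter floor and 127 over all probe sets of the table, and 64 to 67 without 1 array. Centring gave 15 higher and 52 lower, the deposited values 7 and 70. Values of opposite sign were -0.0165 for SNORA38B and -0.039 for SNORD83B between the lines (deposited values; limma adjusted p = 0.897 and 0.604), and 0.37 for SNORD20 with siTET2 in LNCaP against nc. The cause was not tested, beyond the different numbers of probe sets tested. No paired analysis was possible because the labels give no replicate numbers to pair arrays by; the limma fit compares constructs within lines, and lines within constructs, through its terms. The table gives no signal over background, so for members at the bottom of the arrays, such as SNORD115, what the array can resolve is unknown.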

Other observations

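Of the 192 symbols, 5 had more than 1 probe set, and these show how far probe sets of one RNA depart from each other. The 2 probe sets of SNORA10, and 2 of the 3 of SNORA15, held identical values in all 8 arrays, which leaves 196 distinct members. The 2 probe sets of SCARNA17, a Cajal body RNA in SNHG22, were both higher in every LNCaP array than in any DU145 array, but within DU145 siControl was the highest array for the first and the lowest for the second: in LNCaP 9.40, 9.41, 9.32 and 9.53 (nc, miR-29b, siControl, siTET2) for the first and 8.87, 8.78, 8.69 and 8.89 for the second, and in DU145 8.33, 8.33, 8.41 and 8.38 for the first and 7.80, 7.71, 7.67 and 7.83 for the second. The 2 of SCARNA9 had LNCaP values of 7.22, 7.11, 7.64 and 7.42 and of 8.73, 8.76, 9.49 and 9.10, so that siControl minus nc was 0.425 for the first and 0.76 for the second. The 2 of SCARNA9L were not alike: in LNCaP the first had 6.84, 7.15, 7.87 and 7.61 and the second 5.79, 5.34, 5.98 and 5.91. The first SCARNA9L probe set lay lower in DU145 with nc (6.35) than in LNCaP with nc, whereas the second lay slightly higher (6.0).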
